A study of Mus musculus with 10 samples.

Results

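Hepatocytes, the main cells of the liver parenchyma, were compared between ZT6 and ZT12, that is between the middle and the end of the light phase. ZT, zeitgeber time, gives the hour after lights on, which by convention is ZT0. All UMIs (unique molecular identifiers, tags that mark single captured transcripts) of the cells of a library were added up per gene, so that each library gave 1 replicate. The comparison used 5 of the 10 libraries of the series, namely ZT6A and ZT6B against ZT12A, ZT12B and ZT12C. They held 8177 of its 18378 cells: 2420 and 1439 cells at ZT6, and 710, 2469 and 1139 cells at ZT12. The other libraries, 3 at ZT0 and 2 at ZT18, served to estimate the spread.

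Both groups came from C57BL/6 male mice aged 3 months with free access to regular chow. No genotype or drug differs between the groups. The mice were anaesthetised with ketamine and xylazine, the liver was perfused with collagenase, and hepatocytes were enriched on Percoll. Single cells were captured and their transcripts tagged at the 3' end with version 2 of the 10x Chromium chemistry. The number of mice behind a library is not labelled, so the p-values measure the spread between libraries, which may in part be technical. The question addressed is which hepatocyte genes change over the later part of the light phase, when mice mostly rest and eat little.

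As background, the circadian clock is a feedback loop in which CLOCK and BMAL1 (encoded by Arntl) activate the Per and Cry genes, whose products then repress them. REV-ERB alpha, encoded by Nr1d1, represses Arntl, and output factors such as DBP, TEF and HLF pass the rhythm on to metabolic genes. In the liver, feeding, glucocorticoid hormone and body temperature also carry time-of-day signals to the same cells.

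Depth was 4922234 and 2588441 UMIs at ZT6 and 1454623, 7144803 and 1991992 UMIs at ZT12, so ZT12A and ZT12C carry the most counting error. ZT12A stood apart with 24.3% of its UMIs from mitochondrially encoded genes, against 12.9% to 17.6% in the other 4 libraries. Summed levels of 8 hepatocyte markers were 39548 to 63656 CPM (UMIs of the gene per 1000000 UMIs of the library). Markers of other cells were low in every library: 9 endothelial markers summed to 4.12 to 19.6 CPM and 11 macrophage markers to 0 to 8.96 CPM, with Clec4f, Csf1r, C1qa, C1qb and C1qc at 0 in all 5. Cholangiocyte markers summed to 5.8 to 20.5 CPM at ZT6 and 24.8 to 44.0 CPM at ZT12 (two-sided exact permutation p = 0.2, where the smallest p this design allows is 0.1). Most of this sum was Spp1, with 16.25 and 5.02 CPM in ZT6A and ZT6B and 40.56, 21.13 and 28.11 CPM in ZT12A, ZT12B and ZT12C. Krt19, Krt7 and Epcam were each at 0 to 0.69 CPM in all 5. The 8 pericentral landmark genes summed to 7823 and 9035 CPM at ZT6 and to 11807, 7189 and 14677 CPM at ZT12, highest in ZT12A and ZT12C (exact permutation p = 0.5). The part of these differences in the results below was not tested.

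Few genes passed the test, and those that did changed by a large factor. Of 8908 genes tested with edgeR's quasi-likelihood test, 53 (0.595%) had a Benjamini-Hochberg adjusted p under 0.05, and these are called changed here. Of them, 26 rose (0.292%) and 27 fell (0.303%) from ZT6 to ZT12. With library size alone as the scaling, 29 rose and 19 fell. The smallest of the 53 changes was 2.02-fold and the median 3.12-fold, and 13 genes changed at least 4-fold. In each of the 53, all 3 ZT12 libraries lay on the same side of both ZT6 libraries, which was also so for 30.9% of all genes tested. At an unadjusted p under 0.05 stood 1087 genes (12.2%), of which 567 were higher and 520 lower at ZT12. None of the 53 is a major urinary protein gene, an annotated pseudogene or mitochondrially encoded.

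**Figure D1:**
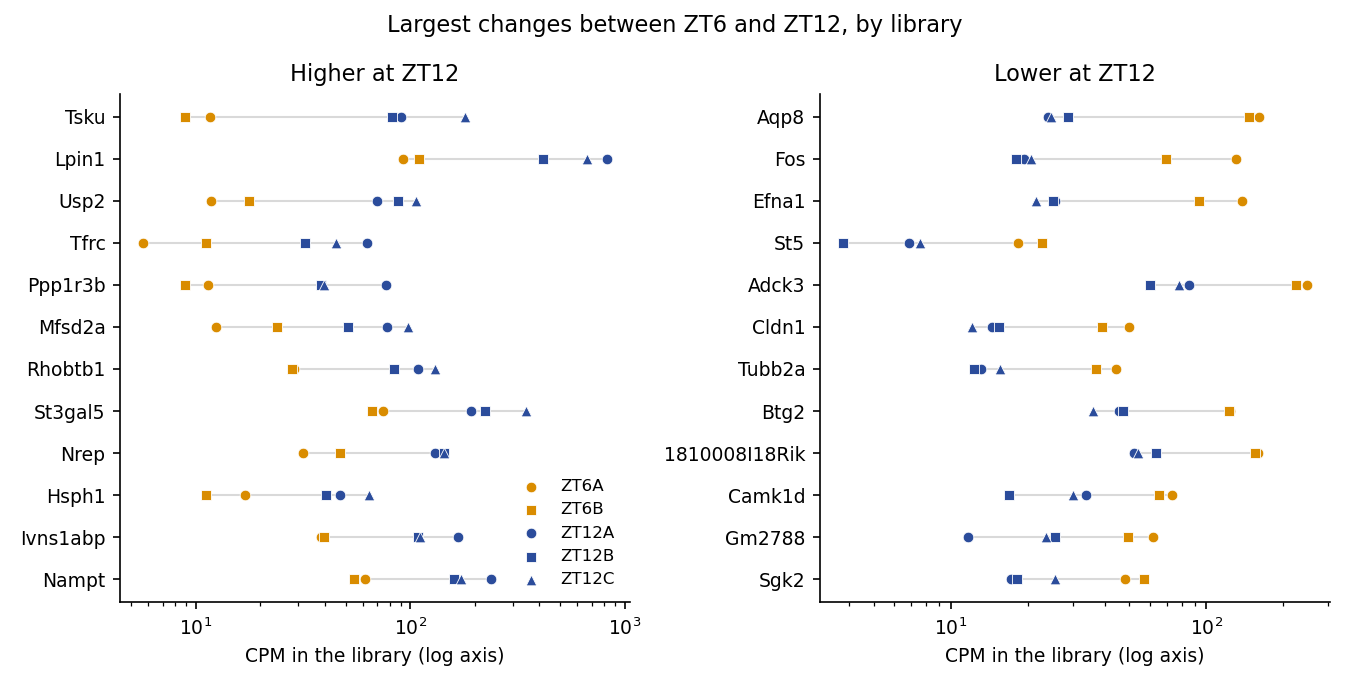
CPM on a log axis for the 12 largest rises and the 12 largest falls among called genes whose mean over the 10 libraries reached 20 CPM. Each point is 1 library (orange ZT6, blue ZT12; shape gives the letter), and in every row the orange and the blue points do not overlap.

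The calls depended on single libraries. All 53 genes kept their sign under every alternative in which they were tested. The groups did not overlap in any of the 53, so leaving out a library could hardly turn a sign. The kept signs thus add no separate support. Without ZT6A, edgeR called 0 genes, and 601 had an unadjusted p under 0.05; the same libraries gave 30 calls with DESeq2 and 0 with limma-voom. Without ZT6B it called 11 genes, without ZT12A 19, without ZT12B 57 and without ZT12C 16. Sizes moved little: over the 53 genes, the median ratio of the log2 change without ZT6A to that with all libraries was 0.955.

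The labels give each library a 10x sample index, and its plate column differs between libraries: ZT6A, ZT6B and ZT12B have column 7, ZT12A column 3 and ZT12C column 5. What this column tracks is not stated. ZT6A and ZT6B, of the same column, correlated with r = 0.982 in log2(CPM + 1) over genes. The ZT12 libraries, all of different columns, correlated with r = 0.949 to 0.958. At ZT18, with a single column, r was 0.981, and at ZT0, with different columns, 0.957 to 0.963. Principal components, the main axes of variation, were computed over all 10 libraries. Component 1 (28.3% of the variance) was positive in every ZT6 and ZT12 library and negative in the others. Component 2 (20.5%) was negative in the libraries of column 7 alone: ZT0B -19.81, ZT6A -22.65, ZT6B -27.48 and ZT12B -8.607. In the others it ran from 0.1993 in ZT18B to 34.95 in ZT12A. The part of the column in these differences was not tested. Within column 7, 53 of 53 genes kept their direction, which the lack of overlap between the groups made likely beforehand. The median ratio to the changes over all libraries was 0.923. With 1 library left at ZT12 there, assumed to vary like those of other times, edgeR called 0 genes (589 had an unadjusted p under 0.05), against 29 with DESeq2 and 0 with limma-voom. With the column as a block, 36 genes were called, 26 of them among the 53. Every fit with this block also left out both ZT18 libraries. Of the 53 calls, 27 were lost in it, against 31 with the ZT18 libraries left out and no block. The part of the column in these losses was not tested.

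Of 13 genes of the clock's core loop tested, 1 passed, and of 7 clock output genes 2 did, against 0.595% of all genes. In the loop Nr1d1 fell, and the output genes Usp2, which encodes a ubiquitin-specific protease, and Nampt, which encodes the rate-limiting enzyme of NAD salvage, rose. Nr1d1 stood at 39.6 and 24.7 CPM in ZT6A and ZT6B and at 1.38, 7.14 and 10.0 CPM in ZT12A, ZT12B and ZT12C. It was low in all 3 ZT12 libraries and lowest in ZT12A, where the value rests on 2 UMIs. The log2 change was -2.33 ± 0.41 (standard error, SE; edgeR adjusted p = 0.0265). At ZT0 and ZT18 its mean was 1.72 ± 0.94 (SD, n = 3) and 0.29 ± 0.03 CPM (SD, n = 2; 1 UMI in each library), so that ZT6 held the highest mean of the 4 times. The 3' end of Nr1d1 overlaps that of Thra on the other strand, and whether counting used strand is not given in the sources used here.

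Usp2 went from 11.8 and 17.8 CPM in ZT6A and ZT6B to 70.1, 87.3 and 105.9 CPM in ZT12A, ZT12B and ZT12C. It rose 5.8-fold, by 2.54 ± 0.34 on the log2 scale (adjusted p = 0.00492), and was at 5.45 ± 2.21 CPM at ZT0 (SD, n = 3) and 16.5 ± 3.84 CPM at ZT18 (SD, n = 2). Nampt went from 61.8 and 54.9 CPM to 238.5, 159.3 and 172.7 CPM, a log2 change of 1.65 ± 0.24 (adjusted p = 0.00977). Both were highest at ZT12 among the 4 times. Without ZT6A none of these 3 calls remained (adjusted p 0.188 to 0.393), and the call of Nr1d1 was also lost without ZT6B (0.0784), ZT12B (0.0528) or ZT12C (0.0529), that of Nampt without ZT6B (0.149). All 3 calls held with the index column blocked.

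The promoters of these 3 genes are shown because the factors of the loop bind short motifs near gene starts. Each line gives the 250 bases before the start of the gene from RefSeq, on GRCm38.p6, read 5′ to 3′ on the gene's strand. Capitals mark matches on either strand to the E-box CACGTG, the ROR/REV-ERB half-site AGGTCA, the D-box TTATGNAA or the cAMP response element half-site TGACG, overlapping matches included.
Nr1d1 (chr11:98775378-98775627, minus strand): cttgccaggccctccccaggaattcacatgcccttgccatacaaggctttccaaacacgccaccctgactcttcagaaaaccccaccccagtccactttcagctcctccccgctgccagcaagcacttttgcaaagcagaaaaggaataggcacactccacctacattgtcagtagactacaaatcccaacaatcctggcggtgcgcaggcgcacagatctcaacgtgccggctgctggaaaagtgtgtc
Usp2 (chr9:44084670-44084919, plus strand): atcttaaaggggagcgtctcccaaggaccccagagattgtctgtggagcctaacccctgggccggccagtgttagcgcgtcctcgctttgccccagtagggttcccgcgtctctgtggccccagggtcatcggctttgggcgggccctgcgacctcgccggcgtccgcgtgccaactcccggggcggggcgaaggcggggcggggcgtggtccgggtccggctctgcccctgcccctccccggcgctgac
Nampt (chr12:32820085-32820334, plus strand): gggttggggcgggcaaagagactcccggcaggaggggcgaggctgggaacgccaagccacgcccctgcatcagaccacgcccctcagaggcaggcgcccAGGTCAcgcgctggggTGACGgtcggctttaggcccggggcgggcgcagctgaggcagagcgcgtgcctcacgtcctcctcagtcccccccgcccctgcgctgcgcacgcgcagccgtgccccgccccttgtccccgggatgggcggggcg
The Nampt window holds 1 AGGTCA and 1 TGACG, and the windows of Nr1d1 and Usp2 hold none of the 4 motifs, which says only that these letters are not in these windows. Over 32851 such windows, 6.02% hold the E-box, 14.0% AGGTCA, 3.07% the D-box and 17.8% TGACG. A promoter was found in the RefSeq table for 42 of the 53 called genes.

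Among the other repressors, Per1, Per2, Per3, Cry1, Ciart and Nr1d2 were each higher in all 3 ZT12 libraries than in both ZT6 libraries, and none passed. Groups that did not overlap, in either direction, were found for 30.9% of all genes tested. Per3 came closest, at 15.2 and 12.4 CPM at ZT6 and 39.2, 24.8 and 31.6 CPM at ZT12 (log2 change 1.11 ± 0.26, adjusted p = 0.0826). Per2 had 7.52 and 7.34 against 28.2, 15.8 and 31.1 CPM (1.63 ± 0.52, adjusted p = 0.213). Per1 differed by 0.91 (adjusted p = 0.348), Cry1 by 1.33 (0.164) and Ciart by 1.44 (0.237) on the log2 scale. Cry2, Nr1d2 and Bhlhe40 had log2 changes of 0.04, 0.34 and -0.18 (adjusted p 0.969, 0.521 and 0.838). The median over the 9 repressors tested, Nr1d1 included, was 0.91, against 0.02 over all genes. It was 0.49 without ZT6A and 0.58 with the index column as a block.

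Of the 4 activators tested 0 passed; Arntl, Clock and Rora had log2 changes of -0.43, -0.48 and 0.04. Arntl was at 2.24 and 1.55 CPM at ZT6 and 3.44, 1.12 and 1.004 CPM at ZT12, near the lower limit of these depths. Of the output factors, Dbp had 109.9 and 127.1 CPM at ZT6 and 74.3, 155.1 and 128.0 CPM at ZT12, groups that overlapped (-0.04 ± 0.26, adjusted p = 0.97). Its relatives Tef and Hlf had log2 changes of 0.76 and 0.63 (adjusted p 0.153 and 0.249), with ZT12 above ZT6 in every library. Such a lack of overlap, in either direction, was found for 30.9% of all genes tested. Nfil3, a repressor of the same D-box sites, had -0.78 (0.343). Rgs16, a regulator of G protein signalling, had 26 and 29.4 against 114.8, 33.2 and 129.5 CPM, a difference carried by ZT12A and ZT12C (1.63 ± 0.65, adjusted p = 0.342).

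Of the immediate early genes, 3 fell and 0 rose. These are genes that hormones and stress switch on within minutes, many of them through cAMP and kinase signals. Of 15 tested, 0 had a positive log2 change, against 51.6% of all genes, and 10 were lower at an unadjusted p under 0.05, against 5.84%. The 3 that passed, against 0.595% of all genes, were Nr4a1, Fos and Btg2. The list's median log2 change was -1.52.

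Nr4a1, the orphan nuclear receptor NUR77, went from 31.9 and 40.9 CPM in ZT6A and ZT6B to 4.13, 4.62 and 0.50 CPM in ZT12A, ZT12B and ZT12C. The last value is 1 UMI and that of ZT12A 6 UMIs. The fitted log2 change was -3.40 ± 0.54 (adjusted p = 0.0146) and -4.21 without ZT12B. Fos, a subunit of the AP-1 factor, had 130.2 and 69.5 CPM at ZT6, apart from each other, and 19.3, 17.9 and 20.6 CPM at ZT12, close together (-2.43 ± 0.42, adjusted p = 0.0248). Btg2, an antiproliferative gene, had 123.9 and 122.9 against 45.4, 47.0 and 36.1 CPM (-1.57 ± 0.24, adjusted p = 0.0101). Pde4b, a cAMP phosphodiesterase outside the list, fell from 41.6 and 30.5 CPM to 8.25, 6.30 and 4.02 CPM (-2.60 ± 0.34, adjusted p = 0.00444).

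All 4 of these genes were highest at ZT6 among the 4 times, with Btg2 at 100.4 ± 14.3 CPM (SD, n = 2) at ZT18 and 65.6 ± 16.2 CPM (SD, n = 3) at ZT0. Without ZT6A none of the 4 calls remained (adjusted p 0.102 to 0.356). Fos was also lost without ZT12A, ZT12B or ZT12C, Nr4a1 without ZT6B or ZT12A, and Btg2 without ZT6B (adjusted p 0.0586 to 0.122). All 4 were called with the column blocked. Other list members, picked here after their values were seen, were also lower in every ZT12 library than in both ZT6 libraries without passing. A lack of overlap, in either direction, was found for 30.9% of all genes tested. Egr1 had 217 and 183 against 45.4, 38.8 and 59.2 CPM (adjusted p = 0.104), and Junb 143 and 178 against 35.1, 36.4 and 19.6 CPM (0.0826). Atf3, Socs3, Ier2 and Jun had log2 changes of -2.22, -1.98, -1.09 and -0.63 (adjusted p 0.116, 0.156, 0.0983 and 0.215). Zfp36, an RNA-destabilising factor with the highest mean among members that did not pass, overlapped between the times (-0.29, adjusted p = 0.677).

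The promoters of the 3 called members are shown because TGACG is the half-site of the element through which cAMP signals act. These 3 were chosen after their values were seen. The format is that of the clock genes above.
Nr4a1 (chr15:101266596-101266845, plus strand): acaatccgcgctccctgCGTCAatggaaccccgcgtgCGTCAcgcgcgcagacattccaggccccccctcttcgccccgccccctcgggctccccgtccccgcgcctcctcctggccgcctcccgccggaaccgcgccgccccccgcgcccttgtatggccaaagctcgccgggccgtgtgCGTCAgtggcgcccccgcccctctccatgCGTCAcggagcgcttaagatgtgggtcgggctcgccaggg
Fos (chr12:85473640-85473889, plus strand): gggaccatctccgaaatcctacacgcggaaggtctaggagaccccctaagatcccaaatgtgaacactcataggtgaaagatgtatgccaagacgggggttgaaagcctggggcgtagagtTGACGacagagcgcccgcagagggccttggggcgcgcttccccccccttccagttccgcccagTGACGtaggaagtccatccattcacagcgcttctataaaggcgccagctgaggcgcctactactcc
Btg2 (chr1:134079156-134079405, minus strand): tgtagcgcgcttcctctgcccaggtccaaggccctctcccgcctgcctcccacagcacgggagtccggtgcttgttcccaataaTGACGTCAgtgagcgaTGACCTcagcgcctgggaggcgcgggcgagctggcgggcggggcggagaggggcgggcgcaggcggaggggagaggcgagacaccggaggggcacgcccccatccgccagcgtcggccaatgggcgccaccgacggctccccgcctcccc
Nr4a1 holds 4 matches to TGACG on either strand and Fos 2. Btg2 holds 2 that overlap in a palindrome, and 1 AGGTCA. A match is a description of the letters and not a site of binding.

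**Figure D2:**
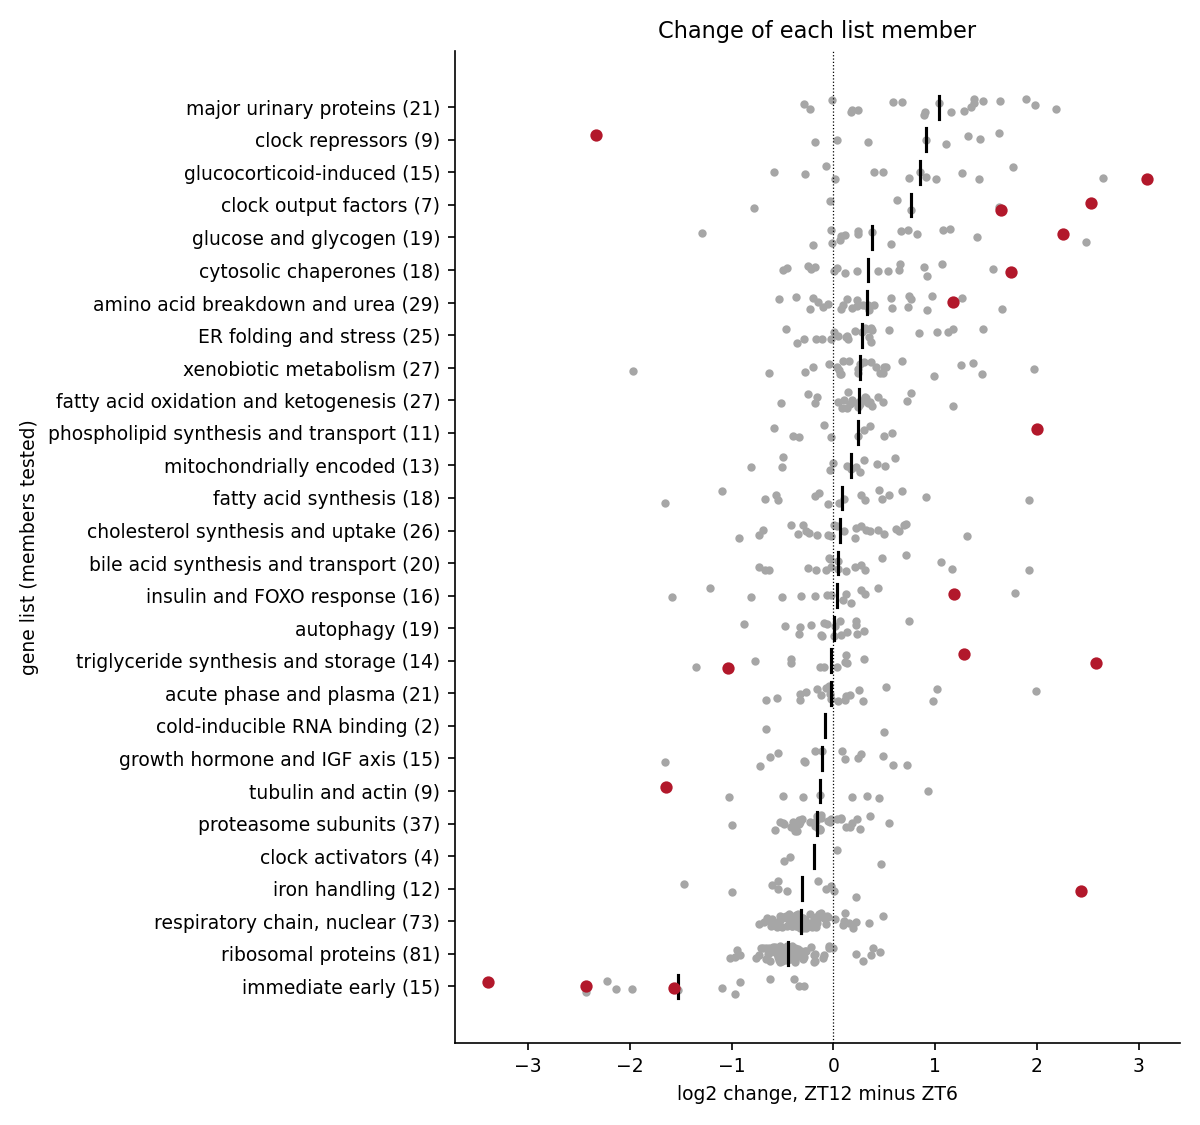
Log2 change from ZT6 to ZT12 (x axis) for every tested member of the 28 gene lists (y axis, number tested in brackets), with called genes in red and the list median as a black bar. Red points appear in 12 lists, and the immediate early genes have the lowest median, -1.52.

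Genes of lipid handling passed in both directions. Of 14 genes of triglyceride synthesis and storage, 2 rose and 1 fell, against 0.292% and 0.303% of all genes. The median log2 change was -0.03. Lpin1 encodes lipin 1, the phosphatidic acid phosphatase that makes diacylglycerol. It had 92.8 and 110.1 CPM in ZT6A and ZT6B and 824, 417.5 and 669 CPM in ZT12A, ZT12B and ZT12C, lowest of the 3 in ZT12B and far above ZT6 in each. The 6-fold rise (2.58 ± 0.30, adjusted p = 0.00235) stood beside means of 43.9 ± 4.94 CPM at ZT0 (SD, n = 3) and 72.7 ± 13.9 CPM at ZT18 (SD, n = 2).

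The lipid droplet coat genes moved apart. Plin5 rose from 12.6 and 14.7 CPM to 32.3, 31.9 and 39.2 CPM (1.29 ± 0.23, adjusted p = 0.0284). Plin2 fell from 267.4 and 295.2 CPM to 116.9, 138.0 and 176.7 CPM (-1.04 ± 0.21, adjusted p = 0.0432). Mfsd2a, a transporter of lysophosphatidylcholine, was the only called gene of 11 in the phospholipid list, against 0.595% of all genes. It had 12.4 and 23.9 CPM at ZT6 and 77.7, 51.1 and 97.9 CPM at ZT12 (1.998 ± 0.393, adjusted p = 0.0406). It was at 3.91 ± 1.99 CPM (SD, n = 3) at ZT0. St3gal5, the enzyme that makes the ganglioside GM3, rose from 74.8 and 66.1 CPM to 192.5, 221.7 and 347.4 CPM (1.78 ± 0.25, adjusted p = 0.00721). Without ZT6A none of these 5 calls remained (adjusted p 0.102 to 0.461), and without ZT6B Lpin1 alone kept its call. Mfsd2a, Plin5 and Plin2 were also lost without ZT12A or ZT12C (adjusted p 0.0688 to 0.132), and Plin2 without ZT12B (0.0718). In the fit with the index column as a block, Mfsd2a, Plin5 and Plin2 were not called (adjusted p 0.0599 to 0.121). The same 3 calls were lost without ZT18 and with no block.

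No gene passed in the lists for cholesterol, fatty acid synthesis and fatty acid oxidation. Of 26 genes of cholesterol synthesis and uptake, 18 of fatty acid synthesis and 27 of fatty acid oxidation and ketogenesis, 0 were called, with medians of 0.07, 0.08 and 0.26 (0.02 over all genes). In the oxidation list 23 of 27 log2 changes were positive, against 51.6% over all genes. Without ZT6A 15 of 27 were positive, with a median of 0.13, and without ZT6B 24, with a median of 0.47. Without ZT12B the median was also 0.13. Cpt1a, the gate of mitochondrial fatty acid entry, had 167 and 148 against 314, 263 and 258 CPM (0.77 ± 0.22, adjusted p = 0.156). Insig2, which holds back sterol synthesis, had 279 and 303 against 179, 104 and 202 CPM (-0.93 ± 0.26, adjusted p = 0.156). Insig1 had 0.70 (0.433), the desaturase Scd1 -0.18 (0.874), Dgat2 of triglyceride synthesis 0.11 (0.881) and Pemt of phosphatidylcholine synthesis -0.09 (0.895).

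Single genes of glucose, amino acid and hormone response rose. Ppp1r3b, which targets protein phosphatase 1 to glycogen, had 11.4 and 8.89 CPM in ZT6A and ZT6B and 77.0, 38.5 and 39.7 CPM in ZT12A, ZT12B and ZT12C (2.26 ± 0.38, adjusted p = 0.0216). Its mean at ZT0, 55.0 ± 11.8 CPM (SD, n = 3), was as high as at ZT12, so that ZT6 was the low time. Foxo1, the insulin-restrained transcription factor of gluconeogenesis, went from 33.7 and 30.5 CPM to 79.8, 57.9 and 93.4 CPM (1.18 ± 0.22, adjusted p = 0.0284). Gpt2, the mitochondrial alanine aminotransferase, had 185.3 and 192.8 against 494.3, 348.6 and 496.5 CPM (1.17 ± 0.23, adjusted p = 0.0393). These were the only called members of the lists for glucose and glycogen (1 of 19), insulin and FOXO response (1 of 16) and amino acid breakdown and urea (1 of 29). Over all genes 0.595% were called.

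In the glucose list 7 of 19 members were higher and 1 lower at an unadjusted p under 0.05, with a median of 0.38; over all genes 6.37% were higher and 5.84% lower. Chosen after their values were seen, Slc37a4, the glucose 6-phosphate transporter, had 90.2 and 66.8 against 156.7, 171.2 and 191.3 CPM (1.08 ± 0.23, adjusted p = 0.0531). Pfkfb1 and Pfkfb3, which control glycolysis, had log2 changes of 1.41 and 2.48 (adjusted p 0.0826 for each). Irs2, an insulin receptor substrate, had 46.1 and 54.1 against 21.3, 10.8 and 23.6 CPM (-1.58 ± 0.42, adjusted p = 0.128). Cps1 of the urea cycle had 0.57 (0.509), and Igfbp1, a FOXO target, -0.18 (0.909).

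Zbtb16, which encodes PLZF and is induced by glucocorticoids, rose from 2.03 and 1.93 CPM, 10 and 5 UMIs, to 24.8, 16.4 and 12.6 CPM (3.08 ± 0.49, adjusted p = 0.0146). It was the only called gene among 15 glucocorticoid-induced genes (0.595% of all genes were called), whose median was 0.85. Blocking on the index column took that median to 0.42. In the list 8 of 15 were higher and 0 lower at an unadjusted p under 0.05, against 6.37% and 5.84% of all genes. Tsc22d3 (GILZ), picked after its values were seen, had 41.0 and 23.2 against 246.8, 77.5 and 326.8 CPM (2.65 ± 0.56, adjusted p = 0.0541). Fkbp5, a chaperone of the receptor, had 28.04 and 15.84 against 71.5, 54.0 and 62.8 CPM (1.43 ± 0.43, adjusted p = 0.192), and Tat, tyrosine aminotransferase, 949 and 652 against 2913, 1068 and 1981 CPM (1.26 ± 0.43, 0.249). In all 3 the ZT12 libraries lay above both ZT6 libraries, and Fkbp5 was also picked after its values were seen. Groups did not overlap, in either direction, for 30.9% of all genes tested.

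Esrra, the oestrogen-related receptor alpha, and Srm, spermidine synthase, rose by 1.01 and 1.37 (adjusted p 0.0432 and 0.0425). Of the 6 calls for Ppp1r3b, Foxo1, Gpt2, Zbtb16, Esrra and Srm, 0 remained without ZT6A (adjusted p 0.283 to 0.44) or without ZT6B (0.142 to 0.418). Without ZT12A or without ZT12C 2 remained each, and without ZT12B 4 did. With the index column as a block the calls of Foxo1, Gpt2, Esrra and Srm were lost (adjusted p 0.0618 to 0.0943). The same 4 were lost without ZT18 and with no block.

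The other 14 rises included the iron uptake gene Tfrc, the chaperone gene Hsph1, and Tsku and Nrg4, which encode secreted proteins. Tfrc, the transferrin receptor, had 5.69 and 11.2 CPM in ZT6A and ZT6B and 62.6, 32.2 and 45.2 CPM in ZT12A, ZT12B and ZT12C (2.43 ± 0.46, adjusted p = 0.0313). It was the only called gene of 12 in the iron list (0.595% of all genes were called). That list had 3 positive log2 changes (51.6% over all genes) and a median of -0.30, or -0.09 with the index column as a block. In it Hamp2, a hepcidin gene, had 228 and 320 against 122, 94.2 and 94.4 CPM (-1.47 ± 0.33, adjusted p = 0.08) and Ftl1, ferritin light chain, -0.54 (0.711). Hsph1, an HSP110 chaperone, had 16.9 and 11.2 against 46.8, 40.3 and 64.3 CPM (1.75 ± 0.31, adjusted p = 0.0277). Its mean was higher still at ZT18, 93.2 ± 3.81 CPM (SD, n = 2).

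Hsph1 was the only called gene of 18 cytosolic chaperones, against 0.595% of all genes. Dnaja1 was at 1.07 (adjusted p = 0.156) and Hsp90ab1 at -0.25 (0.764). Of 25 genes of endoplasmic reticulum folding 0 passed; Hspa5 (BiP) had 323 and 264 against 628, 578 and 806 CPM (1.13 ± 0.29, adjusted p = 0.118), Herpud1 1.47 (0.192) and P4hb -0.02 (0.985). Of the cold-inducible genes Cirbp and Rbm3 neither passed (Rbm3 0.50, adjusted p = 0.502).

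Tsku, which encodes the secreted protein tsukushi, had the largest rise. It stood at 11.6 and 8.89 CPM at ZT6 and at 90.8, 82.2 and 179.2 CPM at ZT12, highest in ZT12C (3.41 ± 0.63, adjusted p = 0.0284). With the index column as a block its log2 change was 2.63 (adjusted p = 0.0123). Nrg4, a secreted ligand of the EGF family, had 5.49 and 6.95 against 20.6, 18.2 and 22.1 CPM (1.66 ± 0.33, adjusted p = 0.0409).

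Fmo5, a flavin-containing monooxygenase, went from 267.8 and 287.8 CPM to 1028, 499.7 and 1224 CPM (1.64 ± 0.33, adjusted p = 0.0425). ZT12B was the lowest of its ZT12 libraries, and within index column 7 the log2 change was 0.85 (adjusted p = 0.56). Rhobtb1 rose from 28.6 and 28.2 CPM to 108.6, 83.8 and 130.0 CPM (1.85 ± 0.22, adjusted p = 0.00235). Nrep had 31.5 and 47.1 against 129.9, 143.9 and 143.6 CPM (1.77 ± 0.35, adjusted p = 0.0393), and Ivns1abp, which encodes an actin-binding Kelch protein, 38.2 and 39.4 against 167.1, 108.5 and 111.4 CPM (1.68 ± 0.31, 0.0288).

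The remaining rises were those of Lonrf1, Tppp, Fam102a, 1110059E24Rik, Lrrc28 and Slc16a12, by 1.13 to 2.12 on the log2 scale (adjusted p 0.0284 to 0.0436). Lonrf1 and Tppp rest on 8 to 12 UMIs in each ZT6 library, and without ZT6A the change of Lonrf1 was 1.52 (adjusted p = 0.44). Of these 14 genes, from Tfrc to Slc16a12, 0 were called without ZT6A (adjusted p 0.102 to 0.494). Rhobtb1 was the only call left without ZT6B and 1 of 2 without ZT12A, and without ZT12C it was the only call left, while 9 remained without ZT12B. In the fit blocked on the index column 8 of the 14 calls were lost (adjusted p 0.0599 to 0.14). These were Hsph1, Nrg4, Fmo5, Slc16a12, Lrrc28, Tppp, Fam102a and 1110059E24Rik. Without ZT18 and with no block 11 were lost, these 8 among them.

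Among the falls were genes of membranes, junctions and the cytoskeleton. Aqp8, a water channel of hepatocyte membranes, dropped 6.08-fold from 160.7 and 146.4 CPM in ZT6A and ZT6B to 24.1, 28.8 and 24.6 CPM in ZT12A, ZT12B and ZT12C (-2.60 ± 0.30, adjusted p = 0.00235). At ZT0 and ZT18 it had 208.3 ± 92.8 (SD, n = 3) and 174.5 ± 20.4 CPM (SD, n = 2), so that ZT12 had the lowest mean. Efna1, the ligand ephrin-A1, had 138.4 and 93.9 against 25.4, 25.1 and 21.6 CPM (-2.31 ± 0.35, adjusted p = 0.00985).

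Cldn1, a tight junction claudin, fell from 49.8 and 39.0 CPM to 14.4, 15.4 and 12.1 CPM (-1.69 ± 0.22, adjusted p = 0.0045). Tubb2a, a beta-tubulin, fell from 44.1 and 37.1 CPM to 13.1, 12.3 and 15.6 CPM (-1.64 ± 0.21, adjusted p = 0.00381). Both were higher at ZT0 than at ZT6, with means of 77.9 ± 4.84 and 137.2 ± 19.6 CPM (SD, n = 3). Tubb2a was the only called gene among 9 tubulins and actins, against 0.595% of all genes (Actb 0.33, adjusted p = 0.622). Reads of its close paralogue Tubb2b may be split with it. Fermt2 (kindlin-2, of integrin adhesion), Dlc1 (a GTPase-activating protein), Rhou (a small GTPase) and Nav2 fell by 1.13, 1.15, 1.22 and 1.35 (adjusted p 0.0198 to 0.0432). Without ZT6A none of these 8 genes, from Aqp8 to Nav2, was called (adjusted p 0.0999 to 0.425), and without ZT6B Aqp8, Efna1, Cldn1 and Tubb2a still were. Aqp8, Cldn1 and Tubb2a were also called without any single ZT12 library. In the fit blocked on the index column 6 of the 8 were called, Rhou and Nav2 not (adjusted p 0.103 and 0.067). Without ZT18 and with no block Dlc1, Rhou and Nav2 were lost.

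Of the mitochondrial genes among the falls, Adck3, whose protein serves coenzyme Q synthesis, had 246.8 and 223.7 against 85.3, 60.3 and 77.8 CPM (-1.73 ± 0.25, adjusted p = 0.00721). Clpx, the unfoldase of a mitochondrial protease, had 107.7 and 82.7 against 50.2, 31.9 and 41.2 CPM (-1.29 ± 0.23, adjusted p = 0.0277). St5 fell by 1.96 ± 0.30 (adjusted p = 0.0108), from 18.3 and 22.8 CPM to 6.88, 3.78 and 7.53 CPM. The kinases Camk1d and Sgk2 fell by 1.49 and 1.44 (0.0279 and 0.0284).

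Non-coding entries were also among the falls: 1810008I18Rik, annotated as a lincRNA, fell from 158.9 and 155.3 CPM to 52.3, 63.4 and 54.2 CPM (-1.51 ± 0.28, adjusted p = 0.0313), and Gm2788, a processed transcript, by 1.45 (0.0432). Anp32a, Ubxn1, Rell1, Stra6l, Dtx4 and Pdzk1ip1 fell by 1.04 to 1.84 (adjusted p 0.0284 to 0.0468). Of these 13 genes, from Adck3 to Pdzk1ip1, 0 were called without ZT6A (adjusted p 0.102 to 0.44) or without ZT6B (0.0716 to 0.33). Once the index column was blocked, Clpx, St5 and Sgk2 kept their calls and the other 10 lost them (adjusted p 0.0511 to 0.0943). Without ZT18 and with no block 10 were also lost, and Adck3, St5 and Rell1 were kept.

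The place of the 53 genes among the 4 times was described from group means. ZT12 had the highest mean of the 4 times for 23 of the 26 genes that rose and the lowest for 24 of the 27 that fell. ZT6 had the lowest mean for 17 of the 26 and the highest for 16 of the 27. A gene could pass only if these 2 times differed, and the ranks at ZT0 and ZT18 were not tested.

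**Figure D3:**
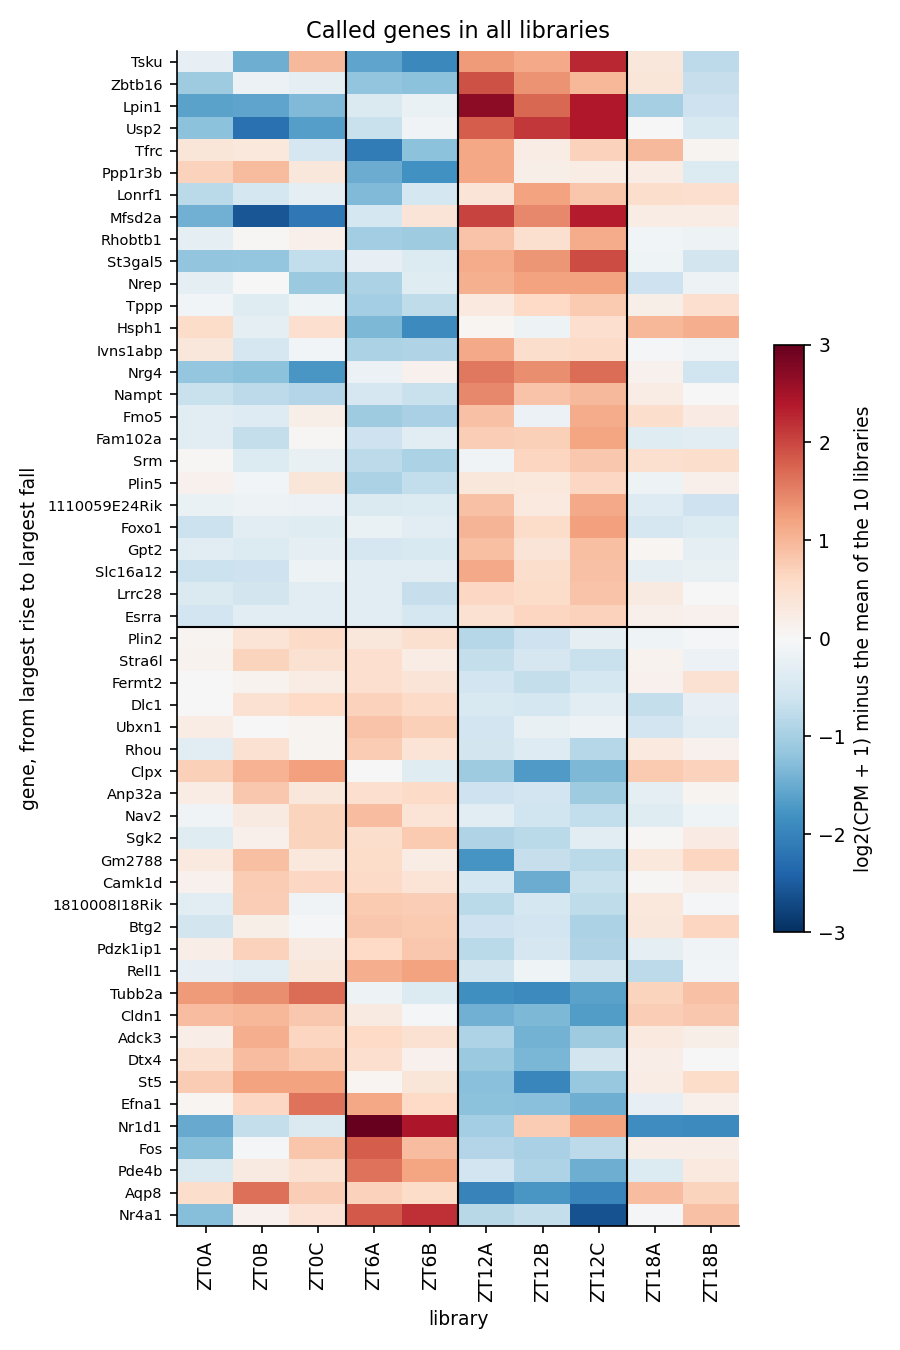
The 53 called genes (rows, from the largest rise to the largest fall; the horizontal line parts rises from falls) in all 10 libraries (columns, vertical lines part the times). Colour is log2(CPM + 1) minus the gene's mean over the 10 libraries; the ZT12 columns are the reddest of their row for most rises and the bluest for most falls.

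The share of cells with at least 1 UMI was computed after every cell had been thinned to 1000 UMIs, which left out no cell. At this depth the share largely follows the mean level of the gene. Like the sums, it cannot tell fewer cells with a transcript from fewer transcripts per cell. Lpin1 was found in 9.05% and 9.87% of cells at ZT6 and in 57.9%, 33.8% and 48.9% at ZT12. Before thinning these shares were 16.5% and 17.2% against 77.0%, 64.3% and 65.8%. Fmo5 was found in 21.5% and 26.1% against 63.5%, 39.9% and 68.7% of thinned cells. Shares of both genes were thus higher in each ZT12 library than in both ZT6 libraries.

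Aqp8 went from 14.5% and 13.5% of thinned cells to 2.25%, 3.08% and 2.02%, and Fos from 12.9% and 6.6% to 2.25%, 1.62% and 1.93%. Before thinning, Aqp8 was in 24.8% and 22.9% of cells at ZT6 and in 4.51%, 7.33% and 4.3% at ZT12. Cells were not assigned to types here, so no cell type lacking these genes served as a background for the shares.

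**Figure D4:**
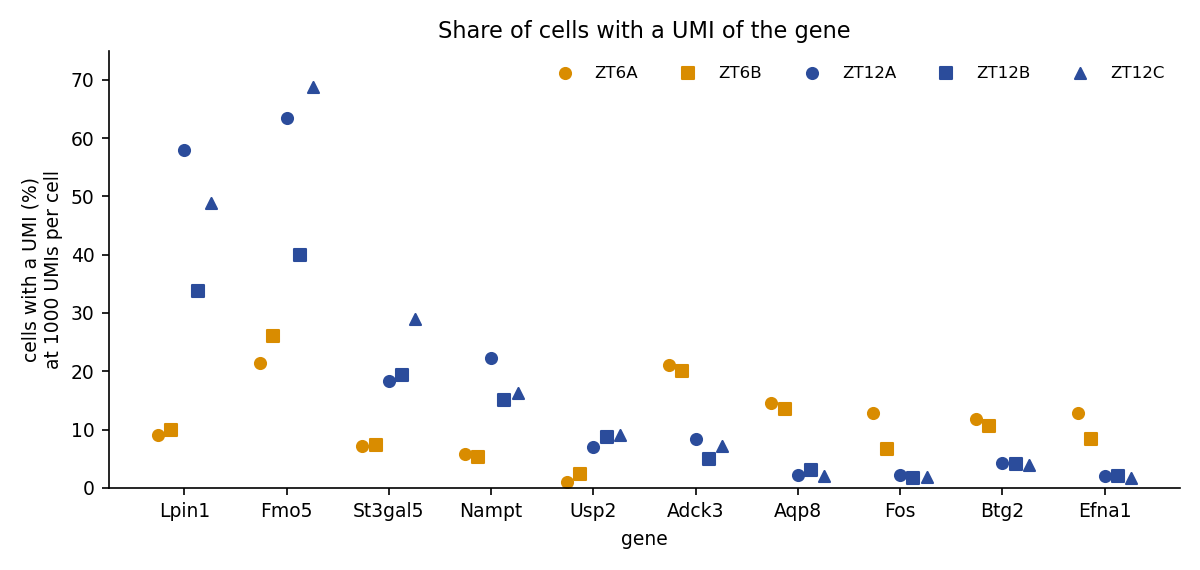
Percent of cells with at least 1 UMI of the gene after thinning to 1000 UMIs per cell (y axis), for 10 called genes (x axis); each point is 1 library, orange for ZT6 and blue for ZT12. For Lpin1 the ZT6 points are at 9.05% and 9.87% and the ZT12 points at 33.8% to 57.9%.

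Position in the liver lobule was then examined, since hepatocytes near the portal and the central vein express different enzymes. Cells of each library were ordered by 8 periportal and 8 pericentral landmark genes and split into 3 equal parts, the pericentral, middle and periportal zones. The correlation across cells between the positions given by alternate landmarks of each side and by the remaining ones was 0.710 and 0.705 at ZT6 and 0.774, 0.755 and 0.821 at ZT12, higher in each ZT12 library. The part of this difference in the zone results was not tested. All 53 genes changed in the same direction in the 3 zones. The zones are parts of the same cells whose sums gave the calls, so this was likely beforehand and is no separate support. Tested within a zone, 20 genes (0.225%) were called in the pericentral, 24 (0.269%) in the middle and 46 (0.516%) in the periportal zone. Among the 53, these tests called 19, 22 and 32.

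The change itself differed between the outer zones for 2 of 8925 genes (0.0224%), Cyp2c29 and Pon1, neither of them among the 53. For the 53, 0 passed, the lowest adjusted p being 0.324. An unadjusted p under 0.05 was found for 7 of the 53, against 419 of all 8925 genes. That lowest value was for Lpin1, which had a log2 change of 3.06 ± 0.32 pericentrally and 2.27 ± 0.29 periportally (difference -0.79 ± 0.20, unadjusted p = 0.000327). In its pericentral zone Lpin1 had 65.9 and 64.4 CPM at ZT6 and 738, 388 and 570 CPM at ZT12; periportally it had 123 and 136 against 802, 435 and 728 CPM. The order of the zones, periportal above pericentral at ZT6, was thus narrower at ZT12, a difference that did not pass the adjustment.

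Tsku had changes of 2.74 ± 0.63 and 4.63 ± 0.72 in the pericentral and the periportal zone (difference 1.92 ± 0.63, adjusted p = 0.802). Its periportal level at ZT6, 3.61 and 1.09 CPM, was close to the limit of detection. For Usp2 the changes were 2.64 and 2.51, and for Aqp8 -2.48 and -2.63 (both with an adjusted p of 1 for the difference).

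**Figure D5:**
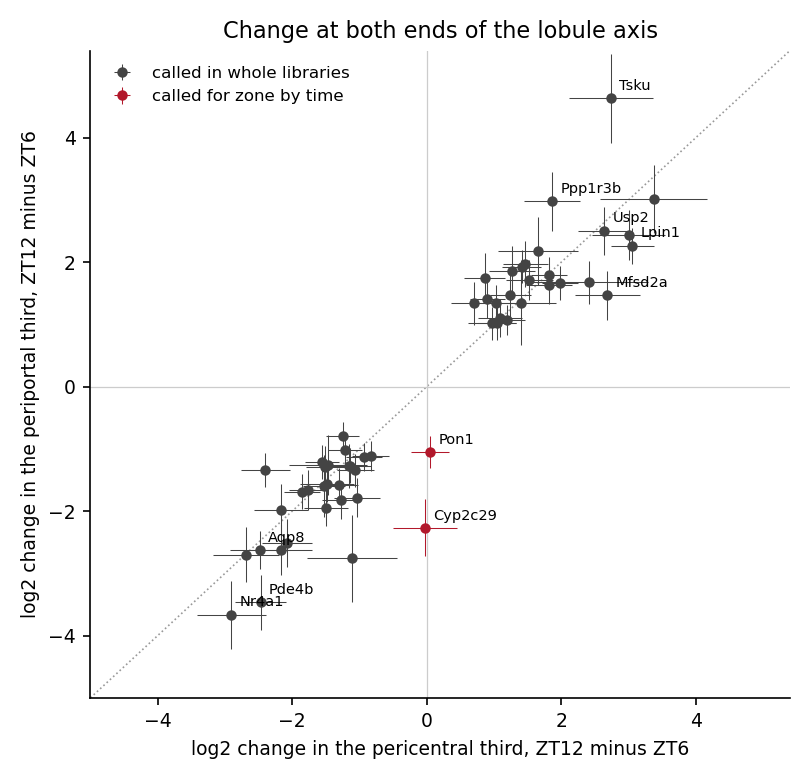
Log2 change from ZT6 to ZT12 in the pericentral zone (x axis) against the periportal zone (y axis), with standard errors as bars and equal change as the dotted line. All 53 called genes (grey), which were chosen on sums over these same cells, lie at the lower left or upper right. Cyp2c29 and Pon1 (red) have a change near 0 pericentrally and a negative one periportally.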

How the data were processed

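UMI counts per gene and cell were used as deposited, whole-number counts with no normalization; the submitters' processing notes name Cell Ranger, mm10 and hg19, with no version or role. The filter on cells is not given in the sources used here; cells held 1048 to 9713 UMIs in the 5 libraries, and no further filter and no doublet caller was applied. Cell barcodes are not in the tables used, so barcodes shared between libraries could not be counted; 0 cell columns were identical between libraries. Of 14812 gene entries, 14321 matched a GENCODE M21 symbol.

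Counts were summed per library and fitted with edgeR 4.0.16 (R 4.3.3; TMM factors 0.888 to 1.14; quasi-likelihood F-test; mean of at least 3 CPM over 10 libraries; 1 mean per time; Benjamini-Hochberg). Log2 changes are fitted values; the SE is the size of the change divided by the square root of F. Zone by time was tested on sums over the pericentral and the periportal zone (outer parts of 3) with the library as a block. Intervals were not computed for counts, and few UMIs limit precision. The scripts were tested on simulated data. Alternatives were DESeq2 1.42.0, limma-voom (limma 3.58.1), other scalings and filters, blocks, and libraries or cells left out; the fits with DESeq2 and limma-voom on fewer libraries were added after seeing the data.

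Named are the 12 largest rises and 12 largest falls with a mean of at least 20 CPM, all clock genes tested, called list members and 1 example per list that did not pass, the zone-by-time calls, and the other called genes; further list members are marked where named. A few genes that the rule names are not reported here. The lists and the comparison were chosen with earlier results of these data known.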

Additional observations from a re-analysis of the deposited data

Results flagged for a closer look

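The change from ZT6 to ZT12 differed between the periportal and the pericentral zone for 2 genes. Cyp2c29, a cytochrome P450 of drug metabolism found mostly near the central vein, had 1680 and 2530 CPM at ZT6 and 2100, 856 and 3630 CPM at ZT12 in the pericentral zone, values that overlap. In the periportal zone it had 77.1 and 216 CPM at ZT6 and 43.9, 25.4 and 30.1 CPM at ZT12, all 3 below both ZT6 libraries. The difference of the log2 changes, periportal minus pericentral, was -1.791 ± 0.293 (edgeR adjusted p = 0.00554). ZT6A and ZT6B lay far apart periportally, and without ZT6B the difference was -1.28 (adjusted p = 1), without ZT12C -1.29 (0.0549). Reads may be shared with other Cyp2c genes.

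Pon1, paraoxonase 1, a lipoprotein-bound esterase, had 382 and 417 against 371, 404 and 512 CPM pericentrally and 160 and 194 against 77.2, 104 and 79.9 CPM periportally. The difference was -1.086 ± 0.206 (adjusted p = 0.036), and leaving out any of ZT6A, ZT6B, ZT12A or ZT12C ended the call (adjusted p 0.18 to 1). With cells split into 2 parts instead of 3, the differences shrank to -0.876 (adjusted p = 0.794) for Cyp2c29 and -0.727 (0.411) for Pon1, and neither passed. At a minimum of 20 CPM the differences were -1.794 and -1.089, with an adjusted p of 0.0814 for each. Positions of cells given by alternate landmarks and by the remaining ones correlated more closely in every ZT12 library (r across cells 0.755 to 0.821) than at ZT6 (0.705 and 0.710). The part of this in both results was not tested.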

How the results depend on the processing

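Against 53 genes called with the settings of the report, DESeq2 called 130, the fit without a filter on low counts 138, and the fit without both ZT18 libraries 22. Within index column 7 edgeR called 0, DESeq2 29 and limma-voom 0. Leaving out each library in turn gave 0 to 57 genes; without ZT6A, DESeq2 called 30 and limma-voom 0. Members of lists called, 17 in the report, were 40 with DESeq2, 42 without a filter, 26 with the 5 libraries alone, 11 without ZT18, 0 within column 7 and 0 to 18 without single libraries. Zone by time, with 2 calls, gave 1 with cells split into 2 parts, 0 at a mean of at least 20 CPM and 0 to 3 without single libraries. Median-of-ratios scaling (54), limma-voom (58), a minimum of 20 CPM (49), the 5 libraries alone (79), no entries of mitochondrial, Mup or pseudogene kind (63) and no cells of the top 5% in UMIs (45) stayed within 1.5 times of 53. ZT6 and ZT12 share the letters A and B, and the other times carry letters too. Deviations of the same-lettered ZT6 and ZT12 libraries correlated with r = 0.00965 and 0.0364, and the letters were not taken as pairs in the report. The deviations of the 2 ZT6 libraries mirror each other, so this check is weak. At ZT0 and ZT12 the letters A, B and C go with index columns 3, 7 and 5, while both ZT6 libraries have column 7. The check could thus not show a spread shared by letter and column, and ZT0 was not compared with ZT12 in this way. The letter as a replicate block gave 127 genes and 32 list members, and all 53 calls held in it. No value of a called gene changed sign. Of the named genes without a call, these changed sign: within index column 7 Rora -0.053, Dbp 0.396, Insig1 -0.218, Pemt 0.007, Cps1 -0.246, Slco1b2 -0.258, Cyp3a11 -0.246, P4hb 0.091, Alb 0.196, Rpl41 0.125 and Actb -0.034; with the index column as a block Dbp 0.268, Slco1b2 -0.168, Cyp3a11 -0.303, P4hb 0.086, Alb 0.179, Rpl41 0.053 and mt-Co1 0.017; with library size alone Dbp 0.023, P4hb 0.048 and mt-Co1 0.009; with the replicate block mt-Co1 0.149; without the top cells P4hb 0.005. Leaving out single libraries gave ranges that span 0 for Rora (-0.094 to 0.109), Cry2 (-0.037 to 0.12), Bhlhe40 (-0.551 to 0.048), Dbp (-0.339 to 0.19), Scd1 (-0.53 to 0.078), Pemt (-0.186 to 0.044), Igfbp1 (-0.627 to 0.184), Cyp3a11 (-0.045 to 0.429), P4hb (-0.176 to 0.169), Lamp1 (-0.005 to 0.165), Psma7 (-0.498 to 0.111) and mt-Co1 (-0.35 to 0.231). The cause of these shifts was not tested. Depth limits genes with few UMIs, above all in ZT12A and ZT12C.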

Other observations

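Genes of basic cell functions gave no call between ZT6 and ZT12. Of 81 ribosomal protein genes 0 passed, 5 had a positive log2 change and the median was -0.45 (0.02 over all genes); within index column 7 the median was -0.08. Of 73 nuclear genes of the respiratory chain 0 passed, 9 were positive and the median was -0.32, or -0.11 within index column 7. Of 37 proteasome genes 0 passed (median -0.16), and of 13 mitochondrially encoded genes 0 passed (median 0.17). At an unadjusted p under 0.05 stood 5, 4, 1 and 2 of them, all of them lower at ZT12. Over all genes 5.84% were lower and 6.37% higher at that threshold, and 51.6% had a positive log2 change. The members of highest level were Rpl41 (-0.58, adjusted p = 0.608), Uqcrq (-0.41, 0.567), Psma7 (-0.17, 0.86) and mt-Co1 (-0.03, 0.985).

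Major urinary protein genes, which the male liver secretes in bulk and whose copies share reads, had a median of 1.04 over 21 entries with 0 calls, 0 at an unadjusted p under 0.05. Their median turned to -0.70 within index column 7, -0.12 without ZT12C and -1.21 with the index column as a block, where 0 of the 21 changes were positive and 1 entry, Mup11, was called (-2.10 ± 0.36, adjusted p = 0.0341), against a log2 change of 1.98 (0.513) without the block. Other lists with 0 calls were bile acid synthesis and transport (20 tested; Slco1b2 0.47, adjusted p = 0.646), xenobiotic metabolism (27; Cyp3a11 0.24, 0.818), acute phase and plasma proteins (21; Alb -0.33, 0.787), the growth hormone axis (15; Mup3 -0.29, 0.786) and autophagy (19; Lamp1 0.08, 0.907). In these 5 lists 2, 5, 1, 0 and 1 members were higher and 2, 2, 0, 2 and 2 lower at an unadjusted p under 0.05. Over all genes 6.37% were higher and 5.84% lower.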
